A study of Mus musculus with 4 samples.

Results

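The genes described here encode the proteins of the cytosolic ribosome. They were chosen by name alone: every gene column called Rpl or Rps followed by digits with at most a closing a, x, y or l, together with Rplp0, Rplp1, Rplp2 and Rpsa, leaving out pseudogene columns and the Rps6k kinases. The rule found 84 of the 25289 gene columns, 52 of the large subunit and 32 of the small subunit, and all 84 had a count in a kept cell. They were measured by single-cell RNA sequencing with inDrop v2, a droplet method that barcodes the messages of each cell, in epithelium of the small intestine of adult C57BL/6J mice. Control mice carried Lats1 fl/fl and Lats2 fl/fl without Cre, and Lats-deleted mice carried the same floxed alleles with Lrig1-CreERT2, a Cre recombinase that tamoxifen activates in cells expressing Lrig1, among them cells of the crypt. Tamoxifen was injected intraperitoneally at 2 mg in both groups, with collection at day 7, and 5000 cells positive for EpCAM and negative for CD45, TER119 and DAPI were sorted per condition. Each group has 2 libraries. Nothing in the labels ties a library to its own mouse. P-values between the groups therefore refer to library-to-library spread, which may be technical. Where the library was a block, they refer to the spread of cluster or class differences, with the libraries' own levels removed.

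The cytosolic ribosome joins a small subunit, which reads the messenger RNA, and a large subunit, which forms the peptide bond, and each subunit assembles ribosomal RNA with one copy of most of its proteins in the nucleolus. Messages of ribosomal proteins begin with a C followed by a run of C and T, the terminal oligopyrimidine motif, through which mTORC1 and LARP1 control their translation. In the intestine, crypt stem and progenitor cells divide and make ribosomes, and their daughters differentiate as they move up the villus until they are shed at the tip. LATS1 and LATS2 are the Hippo pathway kinases that restrain YAP and TAZ.

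The motif is shown first because it is the sequence feature that ribosomal protein messages are known for. Of the 84 genes, 63 matched the RefSeq promoter table of GRCm38.p6. The longest run of C and T was sought within 20 bases on either side of the annotated start, with runs cut at that edge. Its median was 7 bases in the 63 members and 5 bases in 17271 other genes. A run of at least 8 bases was found in 44.4% of the members and 15.6% of the others, and a C followed by 4 further C or T exactly at the annotated start in 19.0% and 2.22%. The 8 windows of 30 bases below, read 5′ to 3′ on the gene's strand with the longest run in capitals, are of members described later. The first 6 hold a run across or beside the annotated start, and the last 2, of paralogues, are shown because their values lay apart from most members'.
Rpl14 (chr9:120571505-120571534, plus strand): cgggCCCTCTCTCTTCTCgctgagcgccgc
Rpl15 (chr14:18270969-18270998, minus strand): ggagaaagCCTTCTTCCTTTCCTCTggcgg
Rpl13a (chr7:45128728-45128757, minus strand): accctgcgacaagaCCTCCTCCTTTCCCag
Rps6 (chr4:86857350-86857379, minus strand): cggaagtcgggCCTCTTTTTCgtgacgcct
Rps27 (chr3:90213631-90213660, minus strand): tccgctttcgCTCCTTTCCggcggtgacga
Rplp2 (chr7:141447639-141447668, plus strand): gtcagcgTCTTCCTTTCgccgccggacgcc
Rps27l (chr9:66946074-66946103, plus strand): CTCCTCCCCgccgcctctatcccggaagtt
Rpl7l1 (chr17:46782646-46782675, minus strand): CCCggtgaggctgcgcaagcgcagtagctg

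In Rpl14, Rpl15, Rps6, Rps27 and Rplp2 the run covers the annotated start, whereas in Rps27l it lies upstream and in Rpl7l1 the longest run is 3 bases. Neither trait is particular to these paralogues. The longest run was also 3 bases in Rpl10, Rpl23, Rpl24, Rpl41 and Rps3, and it lay upstream in Rpl13 and Rpl31. A link between the run and expression was not tested. Within 250 bases before to 50 bases after the start, on either strand, the letters ATGGCG, which the factor YY1 can bind, were found in 30.2% of members and 11.0% of other genes. The letters CCGGAAG, which GABP can bind, were found in 39.7% and 11.5%. The letters CATTCC, which the TEAD partners of YAP and TAZ can bind, were found in 7.94% and 13.7%. A match is a description of letters and says nothing of binding.

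The 4 libraries hold 2247269 to 9191916 counts. Of the barcodes, 774 and 515 were kept as cells in control 1 and 2, and 726 and 1289 in Lats-deleted 1 and 2, with median counts per cell of 1708 and 1995 against 3715.5 and 3848 and median mitochondrially encoded shares of 9.55% and 6.84% against 3.64% and 3.90%. Lats1 was at 23.0 and 34.6 CPM (counts scaled to the library's total after TMM, edgeR's trimmed-mean normalisation) in the controls against 6.83 and 9.12 CPM after Lats deletion, and Lats2 at 9.07 and 10.4 against 26.8 and 19.8 CPM. The exons deleted are not given in the sources used here, so counts near the message's end do not check the deletion. The enterocyte-like cells of the Lats-deleted libraries, 40 and 21 in all, went against their label: Xist, the RNA of the inactive X chromosome, had a count in 2 of 40 and 2 of 21 of them, against 21 of 28 and 94 of 121 progenitor-like cells of the same libraries and 10 of 634 and 5 of 408 enterocyte-like control cells. Lats1 had 2 and 2 counts in them, or 19.2 and 34.7 CPM against 21.5 and 35.5 CPM in enterocyte-like control cells, which is too few to show a deletion or its absence. Every comparison below that uses these cells therefore has no check that they are Lats-deleted. Pairs of libraries shared 4 to 12 kept barcodes, and 4 of the 19 clusters drew over 90% of their cells from Lats-deleted 2. Among these are the stomach-like cells, and stomach markers (11 of 12 with a column) held 0.00324% and 0.00497% of control counts against 0.0851% and 1.02% of Lats-deleted counts, with Gkn2 and Tff2 at 0 in control 1, Gkn1, Muc6 and Atp4b at 0 in control 2 and Gkn2 at 0 in Lats-deleted 1. Stromal markers held 0.00617% and 0.00488% against 0.129% and 0.0199%, and enterocyte markers 2.86% and 2.86% against 0.243% and 0.122%. The part that these differences, depth and cell makeup have in the results below was not tested beyond the values given.

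Ribosomal protein genes took 7.25% (95% exact interval 7.21 to 7.29) and 7.63% (7.58 to 7.67) of all counts of kept cells in control 1 and 2, against 8.70% (8.68 to 8.73) and 11.3% (11.2 to 11.3) in Lats-deleted 1 and 2. Both Lats-deleted libraries lay above both controls, and Lats-deleted 2 stood apart from the other 3. Without the 4 clusters that are mostly Lats-deleted 2, chosen after seeing the data, its share was 9.60%. Barcodes that were not kept held 3.98% and 3.92% against 5.78% and 10.1%, also higher in both Lats-deleted libraries. Intervals cover counting error only.

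The share ranged widely between cell states. Cells were clustered without these genes, so their level had no part in the clusters. The stem-like cluster, named on 5 of 12 stem cell markers, held the most, with 19.1% (18.9 to 19.3) and 19.6% (19.3 to 19.8) in 75 and 53 control cells. It was followed in the controls by the cluster led by Pycard, Dmbt1 and Ccl25, with 14.0% (13.8 to 14.2) and 13.3% (13.2 to 13.5). That cluster is called enterocyte-like on 10 of 18 markers, whose mean log2 fold of 0.503 lies just above the threshold of 0.5. The enterocyte-like cluster led by Reg1, Anpep and Fabp1 held 7.26% (7.18 to 7.33) and 7.48% (7.40 to 7.57). The cluster led by the lactase gene Lct and Tnfsf13 held 5.03% (4.87 to 5.20) and 3.50% (3.33 to 3.68), and that led by Cyp3a25, Pck1 and Lct 2.22% (2.16 to 2.27) and 2.38% (2.32 to 2.45). The least was found in the cluster led by Ada, Cybrd1, Slc28a2 and Apoa4, of which Ada, Slc28a2 and Apoa4 are known as genes of the villus tip, with 1.32% (1.27 to 1.36) and 1.56% (1.49 to 1.62). The order of these 6 clusters was the same in both control libraries. Mitochondrially encoded shares were 7.45% and 6.95% in the stem-like, 8.41% and 7.47% in the Pycard and 10.9% and 9.04% in the Reg1 cluster. They were 9.67% and 9.19% in the Lct and Tnfsf13, 12.3% and 9.10% in the Cyp3a25 and 13.2% and 14.4% in the Ada cluster. The part of these differences in the ribosomal protein shares was not tested.

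The few enterocyte-like cells of the Lats-deleted libraries, with Xist in 2 and 2 of them, are given by cluster. In the Reg1 cluster, 17 and 12 such cells gave 7.66% (7.40 to 7.93) and 7.52% (7.23 to 7.81). In the Pycard cluster, 8 and 2 cells gave 14.0% (13.6 to 14.4) and 12.6% (11.7 to 13.6). In the Ada cluster, 11 and 4 cells gave 1.5% (1.35 to 1.67) and 2.09% (1.76 to 2.45). These 3 clusters were near the controls, whereas the other 2, with 1 to 3 cells per library, were uneven, at 1.66% and 5.44% in the Cyp3a25 cluster and 1.63% and 4.49% in the Lct and Tnfsf13 cluster.

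States found almost only in the Lats-deleted libraries lay between these extremes. The regenerative-like cluster, led by Tgfb2, Ankrd1 and Krt14, held 8.09% (8.05 to 8.13) and 8.98% (8.93 to 9.04). The cycling progenitor-like cluster, led by histone genes, Top2a and Cdk1, held 11.3% (11.2 to 11.5) and 12.7% (12.6 to 12.8) in 26 and 116 cells. The unnamed cluster led by Wfdc18 held 10.7% (10.6 to 10.8) and 10.6% (10.5 to 10.7), and that led by Clca4a and Reg3b 6.84% (6.77 to 6.90) and 6.37% (6.30 to 6.44). Of the clusters mostly of Lats-deleted 2, the one led by Muc1 and Krt4 held 13.5% (13.4 to 13.5) there, and the stomach-like clusters led by Gkn2 and by Pgc held 10.9% (10.9 to 11.0) and 14.1% (13.9 to 14.2). Secretory cells were few and uneven, with goblet-like cells, which also carried Paneth defensin genes, at 6.39% (6.25 to 6.52) and 3.30% (3.20 to 3.40) in 55 and 39 control cells.

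**Figure D1:**
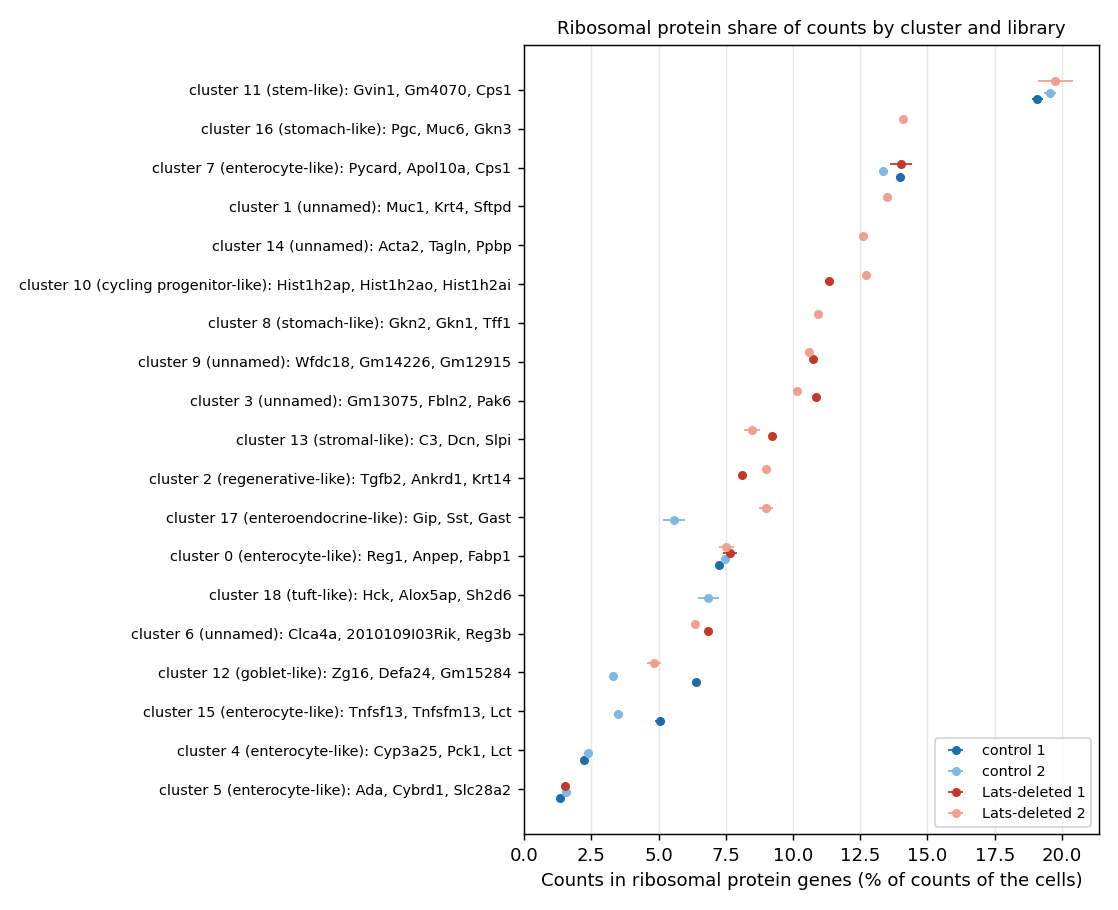
Share of counts in the 84 ribosomal protein genes (x axis, % of the counts of the cells) for each cluster (y axis, with its leading genes) and library, for libraries with at least 5 cells in the cluster. Bars are 95% exact intervals of counting error. The stem-like cluster lies near 19% to 20% and the cluster led by Ada near 1.5%, with the Lats-deleted states between them.

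Single cells were thinned to 1000 counts each to compare them at equal depth. The median share was then 5.4% and 4.7% in control cells and 8.8% and 11.5% in Lats-deleted cells, and as counted 5.33% and 4.69% against 8.66% and 11.5%. Control cells were the more spread, with SDs over cells of 6.28 and 6.42 points against 4.00 and 4.35. Cells under 3% made up 38.6% and 39.2% of the control cells and 5.79% and 5.43% of the Lats-deleted cells. Above 15% the groups overlapped, with 10.5% and 12.4% of control cells and 5.37% and 15.4% of Lats-deleted cells. Enterocyte-like cells, 634 and 408 in the controls, held the low values, with thinned medians of 3.95% and 4.0%, whereas stem-like cells had medians of 19.1% and 19.0%. At 1000 to 2000 counts per cell the share was 6.75% and 5.76% in the controls and 8.58% and 9.62% in the Lats-deleted libraries. Above 4000 counts the groups overlapped, at 6.54% and 9.12% against 8.66% and 11.6%.

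**Figure D2:**
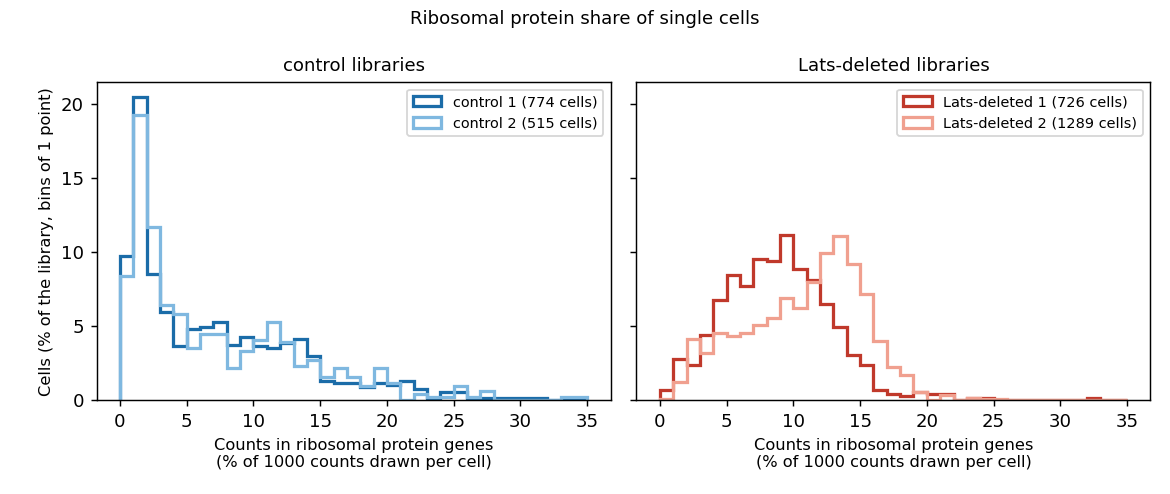
Distribution of the ribosomal protein share over single cells thinned to 1000 counts (x axis, % of the drawn counts, y axis, % of the library's cells in bins of 1 point), control libraries on the left and Lats-deleted libraries on the right. Control cells pile up under 3% with a long tail, and Lats-deleted cells are spread around medians of 8.8% and 11.5%.

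Among control cells, nearly every ribosomal protein gene was higher in the Pycard than in the Ada cluster. The Pycard and Ada clusters of the control libraries were compared with edgeR's quasi-likelihood test on summed counts with the library as a block. The comparison was chosen after seeing the data and is between clusters that differ in share by the values above. The fit held the sums of the stem-like and enterocyte-like clusters of both control libraries. Its p-values refer to how far cluster differences varied between those libraries, and the clusters were made from the same cells. Against a background of 17.1% of all genes called higher and 17.9% called lower, 80 of 82 tested members were called higher in the Pycard cluster and 0 lower, with a median log2 difference of 3.13 against -0.02 over all genes. All 32 small subunit genes and 48 of 50 large subunit genes were called, and the 2 not called were Rpl7l1 and Rpl10l. Values per library in this comparison are CPM scaled by TMM.

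The stalk of the large subunit, which recruits elongation factors, is built on Rplp0 with Rplp1 and Rplp2. Rplp0 stood at 203 and 216 CPM in the Ada cluster, 393 and 396 in the Cyp3a25 cluster, 1337 and 1419 in the Reg1 cluster, 2172 and 2142 in the Pycard cluster and 3338 and 3365 in the stem-like cluster of control 1 and 2. The libraries did not overlap between any neighbours in that order. Its log2 difference between the Pycard and Ada clusters was 3.37 (SE 0.23, adjusted p = 1.48e-33). Rplp1 rose by 2.97 (SE 0.20, adjusted p = 2.78e-33), from 493 and 488 CPM to 4249 and 3437 CPM. Rplp2 rose by 3.34 (SE 0.22, adjusted p = 8.76e-35), from 216 and 360 CPM to 2993 and 2580 CPM.

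Of the other large subunit genes, Rpl32 had the highest difference at 4.29 (SE 0.32, adjusted p = 9.46e-30), from 43.2 and 48.0 CPM to 926 and 871 CPM. Rpl12, which lies at the base of the stalk, rose by 4.22 (SE 0.28, adjusted p = 1.60e-34), from 69.2 and 88.0 CPM to 1542 and 1266 CPM. Rpl41, one of the shortest proteins of the ribosome, rose by 2.16 (SE 0.19, adjusted p = 4.37e-23), from 912 and 936 CPM to 4289 and 3923 CPM. Rpl5 and Rpl11, which together with 5S RNA bind the p53 regulator Mdm2, rose by 3.47 (SE 0.27, adjusted p = 4.00e-28) and 2.72 (SE 0.33, adjusted p = 1.08e-13). Rpl12, Rpl32, Rpl5 and Rpl11 were picked as examples after their values were seen.

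In the small subunit, Rps21 rose by 4.01 (SE 0.23, adjusted p = 1.12e-41), from 173 and 192 CPM to 3078 and 2780 CPM. Rps2 rose by 3.86 (SE 0.26, adjusted p = 2.86e-34). Rpsa, which is also known as the laminin receptor, rose by 3.73 (SE 0.26, adjusted p = 1.13e-31), from 73.5 and 160 CPM to 1451 and 1400 CPM. Rps6, the classic substrate of S6 kinase, rose by 3.42 (SE 0.30, adjusted p = 7.84e-23). Rps27 rose least among these, by 2.16 (SE 0.22, adjusted p = 5.29e-18), from 307 and 288 CPM to 1346 and 1352 CPM. The groups of values did not overlap for any gene named in these 3 paragraphs. The share of all genes without overlap between these clusters is not given.

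Between the stem-like and Pycard clusters of the control libraries the step was smaller. There 50 of 82 members were called higher and 0 lower, against a background of 8.52% higher and 11.0% lower, and the median log2 difference was 0.54 against -0.04 over all genes. Rpl14 had the largest called difference, 0.95 (SE 0.19, adjusted p = 1.74e-05), from 1101 and 1052 CPM to 1980 and 2175 CPM. Rpl12 differed by 0.85 (SE 0.18, adjusted p = 9.82e-05) and Rps18 by 0.68 (SE 0.17, adjusted p = 0.0017). Rplp1 and Rplp2 did not pass, at 0.38 (adjusted p = 0.10) and 0.43 (adjusted p = 0.0652).

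Over the whole classes, progenitor-like cells (stem-like and cycling progenitor-like together) of the control libraries had higher ribosomal protein levels than enterocyte-like cells. This held for 79 of 81 tested members, with 0 lower, against a background of 20.5% of genes called higher and 22.1% lower, and the median log2 difference was 1.55 against -0.03 over all genes. DESeq2 called 79 as well, and without control 1 the count was lower. The share of all genes called is not given for either fit. Rpl14 stood at 2069 and 2233 CPM in progenitor-like and 478 and 516 CPM in enterocyte-like control cells, a log2 difference of 2.11 (SE 0.23, adjusted p = 9.49e-09). The 2 members not called were Rps27l and Rpl7l1. In the Lats-deleted libraries 35 of 81 members were called higher and 0 lower, against a background of 17.0% and 24.1%, with a median of 0.56 against -0.02. The enterocyte-like side is again the 40 and 21 cells with Xist in 2 and 2. That count moved to 60 with plain totals in place of TMM, a choice made after seeing the data. The count rose without Lats-deleted 1 and fell without Lats-deleted 2 and without control 1. Shares of all genes called in these fits are not given.

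Summed over all kept cells, no ribosomal protein gene passed the test between the groups. In these sums a change in the makeup of the cells and a change within cells cannot be told apart. Of 83 tested members, 0 were called higher and 0 lower by edgeR, against a background of 15.3% of 12561 genes called higher and 15.5% lower, and DESeq2 also called 0. At an unadjusted p under 0.05 there were 3, Rpl13a, Rps6 and Rpl15. The log2 fold change, Lats-deleted over control, was positive in 71 and negative in 12, with a median of 0.20 against 0.05 over all genes and a range of -0.44 to 0.68. The groups did not overlap for 44.6% of the members and 68.8% of all genes tested. Both Lats-deleted libraries were higher in 42.2% of members (35) and 35.6% of all genes, and both were lower in 2.41% (2) and 33.2%. Lats-deleted 2 was above Lats-deleted 1 in 79 of 83 members and 6234 of 12561 genes. Leaving out either Lats-deleted library changed these counts, and the share of all genes called in those fits is not given. With plain totals 12 members were called higher (background 22.0% higher and 12.6% lower) and the median rose to 0.45, while the median of all genes moved from 0.05 to 0.30. The remaining member, Rpl3l, a paralogue known from muscle, had 4, 1, 5 and 6 counts in the 4 libraries and was not tested.

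Stalk genes did not pass over all cells. Rplp0 stood at 1414 and 1413 CPM in the controls and 1586 and 1989 CPM in the Lats-deleted libraries, which did not overlap (log2 fold change 0.34, SE 0.23, adjusted p = 0.311). Rplp1 was at 2609 and 2445 against 2743 and 2648 CPM (0.09, SE 0.22, adjusted p = 0.779). Rplp2 was at 1620 and 1651 against 1718 and 2043 CPM (0.20, SE 0.22, adjusted p = 0.539). All 3 were higher in both Lats-deleted libraries, but did not pass the test.

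The highest log2 fold changes over all cells, none of which passed, were of both subunits. Rpl13a, a large subunit protein also known for a role in translational control, stood at 486 and 487 CPM in the controls and 844 and 718 CPM in the Lats-deleted libraries (0.68, SE 0.22, adjusted p = 0.0563). Rps6 was at 573 and 517 against 899 and 797 CPM (0.64, SE 0.22, adjusted p = 0.0688). Rps2 was at 849 and 909 against 1076 and 1618 CPM (0.62, SE 0.27, adjusted p = 0.129). Rpl15, Rpl14 and Rpl19 had log2 fold changes of 0.60, 0.55 and 0.54 (adjusted p = 0.101, 0.132 and 0.124), with no overlap of the groups. Rpsa was at 747 and 819 against 1005 and 1091 CPM (0.42, SE 0.22, adjusted p = 0.187).

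The lowest log2 fold changes over all cells, none of which passed, were led by 4 small subunit genes, of which Rps29 and Rps28 overlapped between the groups. Rps27 stood at 865 and 964 CPM in the controls and 537 and 811 CPM in the Lats-deleted libraries, without overlap (-0.44, SE 0.27, adjusted p = 0.261). Rps29 was at 2165 and 2390 against 1223 and 2225 CPM, with overlap (-0.40, SE 0.32, adjusted p = 0.383). Rps28 was at 1309 and 1374 against 891 and 1506 CPM (-0.16, SE 0.30, adjusted p = 0.717). Rps23, the other gene lower in both Lats-deleted libraries, was at 1763 and 1762 against 1440 and 1729 CPM (-0.15, SE 0.22, adjusted p = 0.650). Rps21, Rps24, Rpl37a and Rpl36a had values of -0.10, -0.10, -0.09 and -0.06, and in each Lats-deleted 1 was below and Lats-deleted 2 above both controls. The same held for Rpl41, at 2879 and 2845 against 1862 and 3965 CPM (0.03, SE 0.36, adjusted p = 0.966), whose log2 fold change without Lats-deleted 2 was -0.64 (adjusted p = 0.000113). Rps12 and Rps18 were at 2037 and 1916 against 1805 and 2612 CPM and at 1854 and 1893 against 1876 and 2522 CPM.

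**Figure D3:**
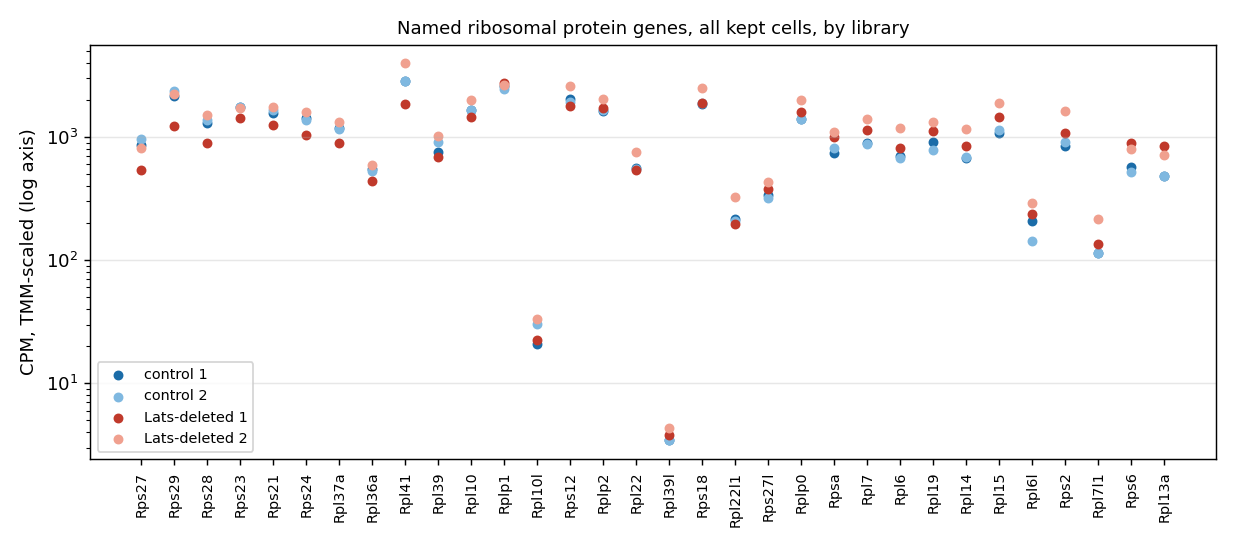
Level of the 32 named ribosomal protein genes in the sum of all kept cells of each library (y axis, CPM scaled by TMM, log axis; x axis, genes ordered by log2 fold change). Lats-deleted 1 lies below the controls for most genes on the left and above them on the right, and Lats-deleted 2 lies above Lats-deleted 1 for most genes.

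Relative to the summed ribosomal protein counts of each library, which removes their common shift, 0 of 83 members were called by edgeR, against a background of 10.2% called higher and 14.4% lower. At an unadjusted p under 0.05 there were 2, Rps27 at -0.63 (adjusted p = 0.127) and Rps29 at -0.61 (adjusted p = 0.130). Rpl13a had the highest value, 0.55 (adjusted p = 0.234).

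The progenitor-like cells of the Lats-deleted libraries had lower levels of ribosomal protein genes than those of the controls. The class was held by different clusters in the groups: the control cells (75 and 54) came from the stem-like cluster except 1, and the Lats-deleted cells (28 and 121) from the cycling progenitor-like cluster except 2 and 5. Within the stem-like cluster, those 2 and 5 cells held 14.7% (13.7 to 15.8) and 19.8% (19.1 to 20.4) against 19.1% and 19.6% in the controls. The value of Lats-deleted 2 was thus not lower there. The mitochondrially encoded shares of those cells were 8.81% and 8.03%, against 7.45% and 6.95% in stem-like control cells. Cycling progenitor-like Lats-deleted cells had 2.96% and 4.80%. Xist was not counted in the 2 and 5 cells alone, so they have no check that they are Lats-deleted. Over the class the members' share was 19.1% (18.9 to 19.3) and 19.5% (19.3 to 19.8) against 11.4% (11.3 to 11.6) and 12.9% (12.8 to 13.0), with mitochondrially encoded shares of 7.45% and 6.95% against 3.12% and 4.88%. By edgeR 54 of 81 members were called lower and 0 higher, against a background of 12.9% lower and 13.8% higher, with a median log2 fold change of -0.78 against 0.03 over all genes. Of the small subunit 24 of 32 were lower and of the large subunit 30 of 49. DESeq2 called 23 lower. Without control 1 and without control 2 fewer were called, with medians of -0.82 and -0.81. Shares of all genes called in these fits are not given.

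Rps21 had the largest decrease, from 4067 and 4021 CPM in control to 1361 and 2039 CPM in Lats-deleted progenitor-like cells (-1.24, SE 0.23, adjusted p = 0.0033). Rps27 fell from 1763 and 2110 to 716 and 972 CPM (-1.19, SE 0.24, adjusted p = 0.00521). Rps18 fell from 5118 and 5548 to 2686 and 2929 CPM (-0.92, SE 0.18, adjusted p = 0.00464). The stalk genes Rplp0, Rplp1 and Rplp2 fell by 0.55, 0.62 and 0.69 (adjusted p = 0.0488, 0.0331 and 0.0188), and Rpsa by 0.73 (adjusted p = 0.0230). In these 7 genes the groups did not overlap. The share of all genes without overlap in this class is not given, and over all kept cells it was 68.8%. Rpl13a, Rps6 and Rpl15, which had the lowest p over all cells, had values of -0.36, -0.30 and -0.27 and did not pass (adjusted p = 0.291, 0.425 and 0.332).

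The comparison was repeated, after seeing the data, on cells with at least 0.3% of their counts in cycling markers, whatever their cluster. Such cells numbered 20 and 22 in the controls, of which 17 and 18 were stem-like and 0 and 1 cycling progenitor-like, and 26 and 188 in the Lats-deleted libraries, of which 0 and 3 were stem-like, 14 and 98 cycling progenitor-like, 10 and 58 unnamed and 0 and 28 stomach-like. The gate thus also set different clusters against each other. The members' share was 17.5% and 17.7% against 11.5% and 13.2%. By edgeR Rpl10a and Rpl27a alone were then called lower, where 5.64% of all genes were, with 30 at an unadjusted p under 0.05 and a median of -0.50. The share was likewise lower in both Lats-deleted libraries at thresholds of 0.2% and 0.4%, with 18.4% and 17.6% against 10.5% and 13.1% at 0.4%.

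In enterocyte-like cells no member was called by edgeR or DESeq2, with 0 of 81 at an unadjusted p under 0.05 in either, against a background of 0.0661% of genes higher and 0.331% lower. The median log2 fold change was 0.12 against -0.06 over all genes, and the values ranged from -0.47 to 0.44. The Lats-deleted libraries held only 40 and 21 such cells, against 634 and 408, and, as given above, Xist in 2 and 2 of them, so the comparison does not show that Lats-deleted enterocytes resemble controls. The members' share was 5.90% (5.86 to 5.94) and 6.55% (6.50 to 6.60) against 7.30% (7.14 to 7.46) and 6.82% (6.62 to 7.04).

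Whether Lats deletion had unequal effects in the 2 classes was tested with an interaction term with the library as a block. By edgeR 40 of 81 members had a more negative effect in progenitor-like than in enterocyte-like cells and 0 a more positive one, against a background of 9.39% and 4.06%, with a median of -0.96 against -0.16 over all genes. The enterocyte-like term rests on the 40 and 21 cells with Xist in 2 and 2, so it has no check as an effect of Lats deletion. Rps27 differed by -1.54 (SE 0.34, adjusted p = 0.00200) and Rps29 by -1.51 (SE 0.32, adjusted p = 0.00138). This count depended on the tool and the libraries. DESeq2 called 0, with 25 at an unadjusted p under 0.05. The edgeR count was lower without control 1, control 2 or Lats-deleted 1, and higher without Lats-deleted 2. Shares of all genes called in these fits are not given.

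**Figure D4:**
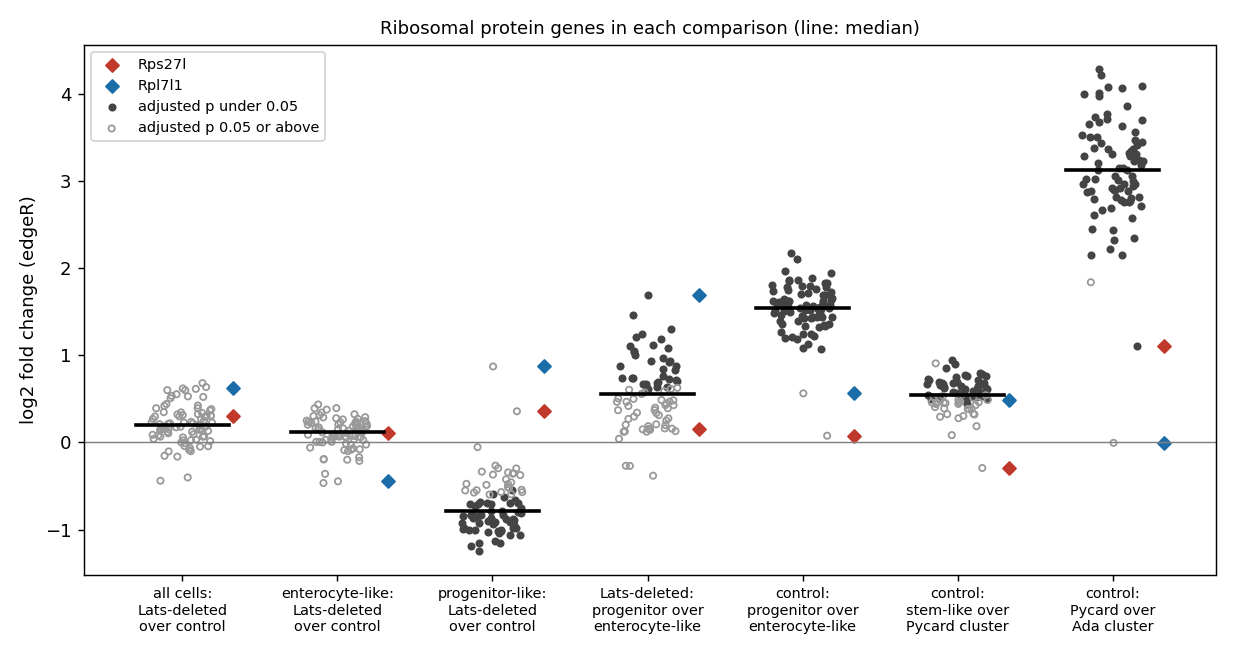
Log2 fold change of each tested ribosomal protein gene (y axis, edgeR) in 7 comparisons (x axis), with filled points for an adjusted p under 0.05, open points for the rest and a line at the median. Diamonds show Rps27l and Rpl7l1 a second time, apart from the other members in most comparisons.

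The paralogues are given beside the genes they are named after. Rps27l, a p53-inducible paralogue of Rps27, was at 382 and 328 CPM in progenitor-like and 329 and 344 CPM in enterocyte-like control cells (log2 difference 0.08, SE 0.26, adjusted p = 0.832), whereas Rps27 was at 1741 and 2047 against 721 and 850 CPM (1.27, SE 0.22, adjusted p = 2.36e-05). Rps27l therefore made up 0.194% and 0.171% of the members' counts in stem-like and 0.507% and 0.488% in enterocyte-like control cells. In Lats-deleted libraries it was 0.449% and 0.354% in cycling progenitor-like and 0.531% and 0.622% in regenerative-like cells. Rps27 fell in the progenitor-like class after Lats deletion, and Rps27l had a value of 0.36 there (adjusted p = 0.364). The difference between the paralogues was not tested.

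Rpl7l1, a paralogue of Rpl7 known as a factor of large subunit assembly, was not called between the Pycard and Ada clusters of the controls, at 100 and 119 against 117 and 96.0 CPM (-0.00, SE 0.38, adjusted p = 0.994). It stood at 90.2 and 91.0 CPM in the Reg1 and 147 and 162 CPM in the stem-like cluster. Rpl7 rose there from 277 and 264 to 1366 and 1390 CPM (2.35, SE 0.22, adjusted p = 3.53e-20). In the Lats-deleted libraries Rpl7l1 was at 233 and 295 CPM in progenitor-like and 81.1 and 76.6 CPM in enterocyte-like cells, a difference of 1.69 (adjusted p = 0.00248) that was the highest of the 81 members. It had the highest log2 fold change in progenitor-like cells too, from 156 and 169 to 269 and 320 CPM (0.87, SE 0.30, adjusted p = 0.0541), and passed there with plain totals and without Lats-deleted 1. Rpl7 had a value of -0.35 (adjusted p = 0.212).

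Rpl22l1, whose message is known to be repressed by Rpl22, moved with it in the control classes. Rpl22l1 was at 509 and 514 CPM in progenitor-like and 164 and 186 CPM in enterocyte-like cells (1.55, SE 0.26, adjusted p = 9.82e-06), and Rpl22 at 1453 and 1213 against 438 and 506 CPM (1.5, SE 0.23, adjusted p = 3.42e-06). Rpl6l and Rpl6 rose by 1.62 (adjusted p = 3.10e-05) and 1.71 (adjusted p = 4.49e-07). Rpl10l and Rpl39l, both known from testis, were low over all cells, with 20.9 and 30.3 against 22.5 and 33.3 CPM for Rpl10l and 5, 4, 15 and 27 counts for Rpl39l, and were not tested within classes. Ribosomal protein genes have many processed pseudogenes, so reads may be split between copies and the values of Rpl10l and Rpl6l, which resemble such copies, are uncertain. The 15 pseudogene columns held 0.695% and 0.710% of control and 0.843% and 1.06% of Lats-deleted counts.

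The 4 X-linked members, Rpl10, Rpl36a, Rpl39 and Rps4x, had log2 fold changes over all cells of -0.06 to 0.06. The median of the other 79 was 0.21. Xist was at 10.5 and 6.93 CPM in the controls and 576 and 471 CPM in the Lats-deleted libraries, so the sex of the animals and the genotype cannot be told apart.

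Other genes of the translation machinery are given in 9 gene lists over all kept cells. The background of calls is that of the members, 15.3% of all genes higher and 15.5% lower. The same lists within classes follow after the sums. Of the ribosome biogenesis factors 47 of 67 were called higher and 0 lower, with a median of 1.41, and the list held 0.175% and 0.172% of control and 0.401% and 0.525% of Lats-deleted counts. Gnl3, a nucleolar GTPase, rose from 15.3 and 12.1 to 51.6 and 58.3 CPM (1.99, SE 0.27, adjusted p = 0.00225). Mybbp1a, Rsl24d1 and Rrp9, factors of pre-ribosomal RNA processing and subunit assembly, rose by 1.77, 1.87 and 3.02 (adjusted p = 0.00217, 0.00196 and 0.00123). Of the RNA polymerase I and 5S genes 3 of 18 were called higher, near the background share, and 0 lower (median 0.64). Among the 3 were the subunits Polr1a, by 1.41, and Polr1c, by 1.37.

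Of 38 initiation factor genes 17 were called higher and 1 lower (median 0.67). Eif2s2, which encodes the beta subunit of the factor that brings the initiator tRNA, rose from 174 and 182 to 941 and 636 CPM (2.15, SE 0.27, adjusted p = 0.00183). Eif4ebp1, the mTORC1 target that binds the cap-binding protein, rose from 28.6 and 30.3 to 194 and 211 CPM (2.78, SE 0.22, adjusted p = 0.000338). Of 10 tested genes of the elongation factor list 3 were higher and 0 lower (median 0.65). They were Eif5a, Eef1d and Eef1e1, at 1.29, 0.85 and 1.94, and inclusion in the list does not show that each acts in elongation. Eef1a1, itself a terminal oligopyrimidine message, had a value of 0.20 (adjusted p = 0.535).

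Of the 16 other terminal oligopyrimidine messages 5 were higher and 0 lower (median 0.72), with the nucleolar chaperone Npm1 rising from 273 and 276 to 655 and 1059 CPM (1.64, SE 0.29, adjusted p = 0.00666). Of 13 genes for proteins that bind free ribosomal proteins or p53 5 were higher and 0 lower (median 0.86), with the histone chaperone Nap1l1 at 3.04 (adjusted p = 0.000825) and Trp53 at 1.15 (adjusted p = 0.0341). The Myc and mTORC1 list had 5 of 27 higher and 5 lower (median -0.01), both near the background of 15.3% higher and 15.5% lower. Myc rose from 27.9 and 6.06 to 130 and 107 CPM (2.75, SE 0.52, adjusted p = 0.00835), and the p53 target Sesn1, an inhibitor of mTORC1, fell from 89.3 and 75.4 to 7.58 and 4.32 CPM (-3.82, SE 0.33, adjusted p = 0.000447).

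Mitochondrial ribosomal protein genes, which serve a separate ribosome, had 3 of 77 higher and 5 lower, with a median of -0.14. Mrpl34 and Mrps36 fell by 1.35 and 1.33 (adjusted p = 0.00441 and 0.00484), and Mrps6 rose by 1.44 (adjusted p = 0.00397). Among cytosolic ribosomal protein genes whose names fall outside the rule, Fau, whose product is processed to the small subunit protein eS30, fell from 998 and 1019 to 537 and 601 CPM (-0.82, SE 0.22, adjusted p = 0.0289). Rpl36al and Rack1 did not pass, at 0.13 and 0.35 (adjusted p = 0.740 and 0.305).

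Within progenitor-like cells few genes of these lists passed between the groups, where 13.8% of all genes were called higher and 12.9% lower. Of 34 biogenesis factors tested 0 were higher and 1 lower (median 0.23), and of 30 initiation factors 2 and 1 (0.34). Of 7 genes of the elongation factor list 0 were higher and 2 lower (-0.42), and of 12 other terminal oligopyrimidine messages 0 and 4 (-0.54). Of 4 polymerase genes 0 were higher and 1 lower (0.15), of 11 Myc and mTORC1 genes 1 and 2 (-0.06), of 6 genes for proteins that bind free ribosomal proteins or p53 2 and 0 (0.71), and of 47 mitochondrial ribosomal protein genes 0 and 0 (-0.26). In enterocyte-like cells 0 genes of these lists were called in either direction, with 19 biogenesis factors tested (median -0.07).

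**Figure D5:**
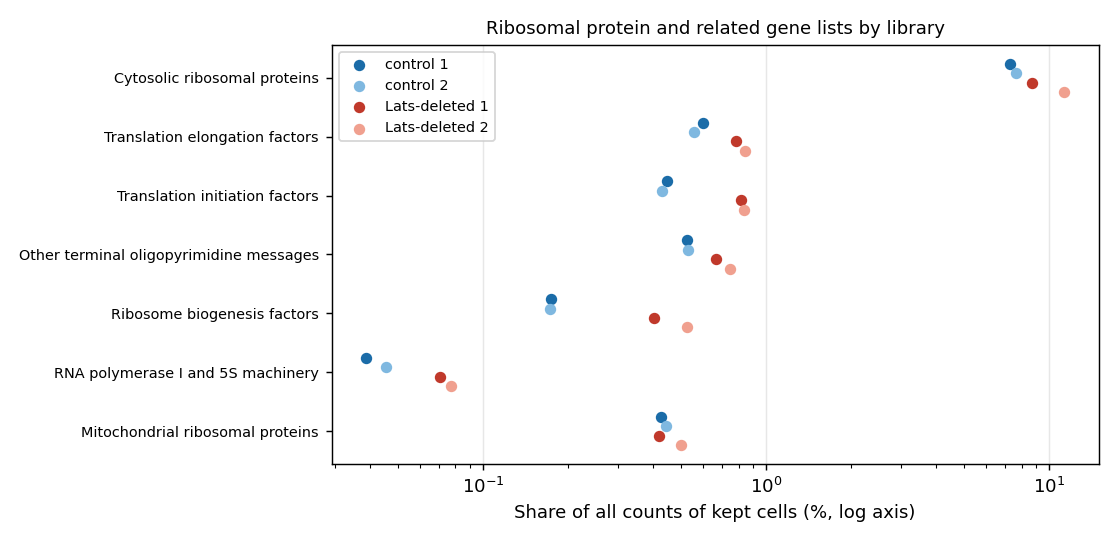
Share of all counts of kept cells (x axis, %, log axis) taken by the 84 ribosomal protein genes and by 6 related gene lists (y axis), with a point for each library. The biogenesis factors rise from 0.175% and 0.172% to 0.401% and 0.525%, and the mitochondrial ribosomal proteins stay between 0.420% and 0.499%.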

How the data were processed

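The authors deposited a table of counts of cell barcodes by genes for each of the 4 libraries. Whether a count is a unique molecule is not stated. Per the submitters' processing notes, the tools named are RSEM 1.3.0, SAMtools 1.3.1 and Bowtie 1.1.1.1 and the build is mm10, without role or order. Strand use in counting is not given in the sources used here.

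Cells are barcodes that held 1000 or more counts, 300 or more genes and no more than 30% of mitochondrially encoded counts. Counts were scaled to 10000 per cell and clustered with scanpy 1.11.5 and leidenalg 0.10.2 in Python 3.11.15 (2000 variable genes without the ribosomal protein genes, 30 principal components, 15 neighbours, resolution 1, seed 1). A cluster was named where 3 or more markers of a list were up over 1.5 times and detected in at least 10% of its cells, the list's mean log2 fold was above 0.5, and no other list had more markers among its top 10 genes. The cluster led by Muc1 stayed unnamed on the last point, with a mean of 1.05 for the cycling progenitor markers. Cells that scrublet marked as doublets (expected share 5%), 0 to 7 per library, were kept.

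Raw counts were summed per library, or per library and class with at least 20 cells in each, and tested with edgeR 4.0.16 in R 4.3.3 (quasi-likelihood, TMM, Benjamini-Hochberg over all genes tested, threshold 0.05). DESeq2 1.42.0, plain totals, other filters, leaving out each library, and other sets of cells were alternatives. Shares have 95% exact Clopper-Pearson intervals. The tests were tested on simulated data before use. Sequences and annotated starts come from RefSeq for GRCm38.p6.

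The genes, lists and markers were chosen with earlier results of these data known. Named members are Rplp0, Rplp1, Rplp2, Rpsa, the 6 of highest mean CPM, the 8 highest and 8 lowest log2 fold changes over all cells, paralogues with the gene they are named after, and in each list up to 4 genes of smallest p. Members named outside this rule were chosen after their values were seen.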

Additional observations from a re-analysis of the deposited data

Results flagged for a closer look

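The effect of Lats deletion differed between progenitor-like and enterocyte-like cells, by the interaction term of edgeR's quasi-likelihood test, in 40 of 81 ribosomal protein genes, all more negative in progenitor-like cells, with a median of -0.96. Of all genes 9.39% were called lower and 4.06% higher, with a median of -0.16. The difference is the log2 fold change in progenitor-like cells minus that in enterocyte-like cells. Of the stalk genes, Rplp0 had a difference of -0.93, Rplp1 of -0.91 and Rplp2 of -1.06. In the small subunit the values were -1.16 for Rps12, -1.34 for Rps18, -1.51 for Rps29, -1.54 for Rps27, -1.25 for Rps28, -1.47 for Rps23, -1.25 for Rps21 and -1.23 for Rps24. In the large subunit they were -1.15 for Rpl37a, -1.40 for Rpl36a and -1.45 for Rpl39. DESeq2 called 0 of 81, and so did edgeR without control 1 or without control 2. The progenitor-like class is held by the stem-like cluster in the controls and by the cycling progenitor-like cluster in the Lats-deleted libraries, and the part of that difference in these values was not tested. The enterocyte-like cells of the Lats-deleted libraries had Xist in 2 of 40 and 2 of 21 cells, against 21 of 28 and 94 of 121 progenitor-like cells, and have no check as Lats-deleted.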

How the results depend on the processing

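With 2 libraries per group, each left-out library leaves 1 whose spread is assumed to be that of the other group, and the tests between clusters of the controls cannot leave one out. The higher share of ribosomal protein counts in the Lats-deleted libraries kept its direction under every alternative run, with a difference of 2.54 points, 1.71 to 2.50 under other settings and 1.27 (without Lats-deleted 2) to 3.82 (without Lats-deleted 1) leaving out each library, which was added after seeing the data. Over all kept cells, the 0 members called higher became 12 with plain totals, 6 without a filter on low counts, 1 in cells of 1000 to 3000 counts, 1 without the stomach-like and stromal-like clusters and 1 without clusters mostly of 1 library, and leaving out each library gave 0 to 38. The 0 called lower became 2 without clusters mostly of 1 library, and 0 to 7 leaving out each library. The log2 fold change of Rpl41 ranged from -0.64 (without Lats-deleted 2) to 0.44 (without Lats-deleted 1). In progenitor-like cells, the 0 called higher became 1 with plain totals and 0 to 1 leaving out each library, and the 54 called lower became 2 in cells gated on cycling markers, 23 with DESeq2, 18 without a filter and 10 to 66 leaving out each library. The 79 members higher in progenitor-like than enterocyte-like control cells became 43 without a filter and 57 to 80 leaving out each library, and the 35 in Lats-deleted cells became 60 with plain totals and 16 to 67. The 40 differences between classes became 0 without a filter, 25 at resolution 2, 0 with DESeq2 and 0 to 66 leaving out each library. The cause was not tested in any of these. Shares of all genes called are given only for the main fits, the cycling gate and plain totals over all cells. Counts under the other settings therefore do not show whether members changed more than other genes. Clusters mostly of 1 library, the cycling gate and plain totals within classes were chosen after seeing the data. Of the alternative values of single named genes, 555 kept direction and side of the threshold, 26 lost and 49 gained a call, 51 without a test moved and 1, Rpl41, reversed. With the replicate number as a block, 0 members were called over all cells in either direction and 40 were called lower in progenitor-like cells. The labels give the libraries only a shared number, and same-numbered libraries deviated together with a correlation of 0.0472 across 12561 genes, which are not independent. Keeping the members among the clustering genes was not run for the progenitor-like class or between classes, because the matching cluster, with 81 and 65 control cells and a mean log2 fold of 1.69 for the stem markers, then lost its name, and no named progenitor-like cells were left in the controls.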
